A study of Mus musculus with 18 samples.

Results

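Weekly prednisone was compared with vehicle in isolated quadriceps myofibers of male mice, with 3 mice on weekly prednisone, 3 on vehicle and 1 library per mouse. These are 6 of the 18 libraries in the series. Of the 43430 genes in the count table, 12636 were compared, which are all genes with 10 or more counts in at least 3 of the 6 libraries. The limit was close for 313 genes that reached it in exactly 3 of the 6 libraries, with a median level of 0.839 CPM (the count of a gene divided by the scaled size of its library). Another 389 genes reached it in 2 libraries, with a median of 0.679 CPM, and were left out. Both groups were wild-type males, C57BL/6 in the labels and C57BL/6J in the study's methods, 10 weeks old at the first injection. The weekly group received prednisone at 1 mg/kg intraperitoneally on 1 day of each week and vehicle on the other 6 days. The control group received vehicle alone, which was DMSO in phosphate-buffered saline. Treatment lasted 4 weeks with 5 weekly injections, and the last was given 2 days before the muscle was taken. Also used for comparison were 3 libraries of males given prednisone at 1 mg/kg every day, 3 female vehicle and 3 female weekly libraries, all C57BL/6. Daily males were injected every day, so their time since the last dose may differ from these 2 days. Myofibers were what a 40 µm strainer retained after digestion of the quadriceps with collagenase, so fat, vessel, nerve and connective tissue cells can come along with the fibers.

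Prednisone is a synthetic glucocorticoid. Its active form binds the glucocorticoid receptor, a transcription factor of the nuclear receptor family that activates some genes and represses others. In skeletal muscle the receptor is known to act on protein breakdown, insulin signaling and fuel use, and in fat it acts on the storage and release of lipid. The study compared weekly with daily dosing to examine effects on atrophy genes and muscle performance. It describes muscle wasting as an adverse effect of chronic daily use.

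Total counts were between 11074280 and 14208799 in the 6 libraries, and no 2 libraries of a group agreed within sampling noise. The 10 myofiber markers, which include Acta1, Ckm and Myh4, were detected in every library and summed to between 128300 and 189700 CPM. Mitochondrially encoded transcripts took between 17% and 32.6% of counts in vehicle and between 25.6% and 27.6% in weekly libraries. The first principal component held 39.2% of the variance and placed vehicle replicate 3 (5.57) between weekly replicate 2 (4.76) and weekly replicate 3 (16.7), so the groups overlapped on it. In bulk RNA, fewer cells of a type and less RNA per cell cannot be told apart.

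No gene passed the test between weekly prednisone and vehicle in males. Of 12636 genes, 0 reached an adjusted p under 0.05 (0%; edgeR quasi-likelihood test, Benjamini-Hochberg adjustment), and the smallest adjusted p was 0.858, so every difference given here for these males missed the threshold. At an unadjusted p under 0.05 there were 713 genes (5.64%), of which 368 were higher (2.91%) and 345 lower (2.73%) on weekly prednisone. This split of 51.6% higher became 38.3% (246 higher and 397 lower) once a trend with gene length was removed from every library. The length is the one listed with the counts. That removal also moved the median log2 difference of all genes to -0.05. With no length step, the share higher was 48.1% with DESeq2, 45.3% with limma-voom and 63.1% without vehicle replicate 1. DESeq2 called 1 gene (0.00791%), Lcn2, and limma-voom called 0. The median log2 difference over all genes was 0.01, and 51.4% of genes had a positive difference. The median standard error of a log2 difference was 0.216.

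Large differences lay mostly on the higher side. A difference of 2-fold or more was found for 232 genes (1.84%), of which 210 were higher (1.66%) and 22 lower (0.174%). The 210 include genes that met the count limit through the weekly libraries alone, such as Adrb3 and Cidea. The 22 include Sept1, which met it through the vehicle libraries alone. The split without such genes was not computed. Limits of 2.5 on the log2 CPM scale and a log2 difference beyond 0.5 either way, which the study used to choose genes for correlation with muscle function, were passed by 412 genes (3.26%), with 335 higher (2.65%) and 77 lower (0.609%). The share of higher genes was 81.3%, and it was 65.1% with the length trend removed (243 higher, 130 lower) and 61.2% without weekly replicate 1 (194 higher, 123 lower). Removing the length trend also moved the median of all genes to -0.05. This filter includes no test, and the study's further limit on variation for its lists of responsive genes was not applied, as its value is not given in the sources used here. Counts by rank were more even, since the 3 weekly libraries lay above all 3 vehicle libraries for 963 genes (7.62%) and below them for 1164 genes (9.21%). Among the genes compared, 75 met the count limit through the weekly libraries alone and 4 through the vehicle libraries alone. Both sets had to differ to be included and are not read as support. Their members are named where they occur in the gene lists or among the genes given by name.

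**Figure D1:**
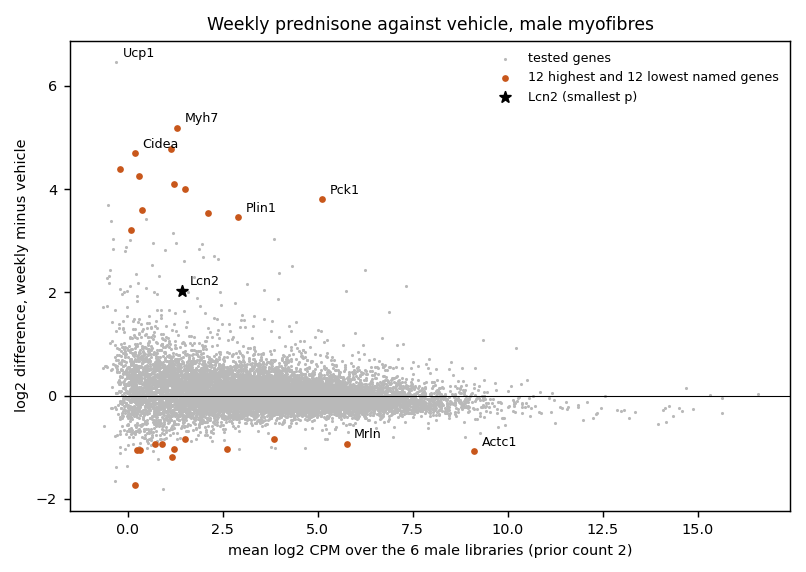
Log2 difference between weekly prednisone and vehicle (y axis) against the mean log2 CPM of each of the 12636 genes over the 6 male libraries (x axis), with the 12 highest and 12 lowest named genes in orange and Lcn2 as a star. The spread is wider at low levels, and large positive differences outnumber large negative ones.

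The gene with the smallest p was Lcn2, which encodes lipocalin 2, a secreted protein that binds iron carriers and small lipids. It was singled out after its values were seen. Lcn2 (ENSMUSG00000026822, mm10 chromosome 2, 32384633 to 32388252) measured 1.22, 1.27 and 1.25 CPM in the vehicle libraries and 5.71, 5.75 and 3.90 CPM in the weekly libraries. The vehicle libraries were nearly equal and all 3 weekly libraries were above them. The log2 difference was 2.03 ± 0.39 (SE, n = 3 per group; edgeR adjusted p = 0.858). DESeq2 gave an adjusted p of 0.0284, while the adjusted p for Lcn2 under the other alternatives ranged from 0.00816 to 1. Leaving out 1 library kept its log2 difference between 1.94 and 2.21. In males on daily prednisone, compared with the same vehicle libraries, the log2 difference was 2.15, and in females on weekly prednisone it was 0.71. Neutrophils are known to make lipocalin 2, and the 8 neutrophil markers summed to 0.610, 0.391 and 0.727 CPM in vehicle and 2.46, 5.46 and 0.836 CPM in weekly libraries, without overlap. S100a8 had 2 counts in vehicle and 28 in weekly libraries, S100a9 2 and 32, and Ly6g and Ngp were at 0 in all 6. The males on daily prednisone had sums of 0.487, 0.379 and 1.17 CPM and Lcn2 values of 5.99, 5.87 and 4.79 CPM. The part of neutrophils in the Lcn2 values of weekly males was not tested.

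The promoters of Lcn2 and of a pair of lipid droplet genes, Plin1 and Cidec, are shown because these genes are among the largest or most even differences in these males and encode proteins that fat cells make. Each sequence runs from 250 bases before to 50 bases after a RefSeq start site on GRCm38.p6 (the assembly of mm10), all on the minus strand. Capitals mark matches, on either strand, to ACANNNTGT, a glucocorticoid receptor motif, or to TTNNGCAA, a motif of the C/EBP factors, and no 2 matches overlap. Lcn2 is at chr2:32387690-32387989, Plin1 at chr7:79732727-79733026 and the second of the Cidec start sites at chr6:113434715-113435014.
Lcn2: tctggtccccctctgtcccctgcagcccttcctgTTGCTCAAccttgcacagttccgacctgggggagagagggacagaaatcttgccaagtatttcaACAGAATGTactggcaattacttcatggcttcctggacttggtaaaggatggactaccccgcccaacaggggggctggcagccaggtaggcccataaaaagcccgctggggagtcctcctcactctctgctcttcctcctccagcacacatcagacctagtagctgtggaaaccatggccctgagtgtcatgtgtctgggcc
Plin1: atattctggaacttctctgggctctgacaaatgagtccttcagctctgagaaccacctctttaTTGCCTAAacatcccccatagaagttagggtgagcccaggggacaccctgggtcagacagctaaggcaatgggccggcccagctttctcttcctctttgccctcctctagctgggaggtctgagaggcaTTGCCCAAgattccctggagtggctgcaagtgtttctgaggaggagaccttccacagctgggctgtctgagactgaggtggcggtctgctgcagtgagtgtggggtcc
Cidec: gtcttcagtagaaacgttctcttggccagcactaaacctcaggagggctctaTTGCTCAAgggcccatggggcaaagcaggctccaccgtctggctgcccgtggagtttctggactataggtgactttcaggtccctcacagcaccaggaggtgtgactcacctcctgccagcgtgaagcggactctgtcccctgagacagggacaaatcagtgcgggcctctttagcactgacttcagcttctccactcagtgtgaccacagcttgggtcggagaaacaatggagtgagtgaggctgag
The Lcn2 promoter held ACAGAATGT at position -152 from the start site and TTGCTCAA at -216. Plin1 held TTGCCTAA at -187 and TTGCCCAA at -58, and Cidec held TTGCTCAA at -198, with no match at its other start site. ACANNNTGT occurred in 6.85% of 32851 promoters and TTNNGCAA in 10.8%, and over the 9695 tested genes with a promoter the shares were 5.05% and 9.98%. A match is a description of these letters and not evidence of binding. Of the adipocyte markers with a promoter, 4 of 7 had a TTNNGCAA match and 0 of 7 an ACANNNTGT match, and of the glucocorticoid receptor targets 3 of 17 had each. Of the 12 genes with the highest differences, described next, 7 had a promoter, of which 1 had a TTNNGCAA match and 0 an ACANNNTGT match.

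Several of the 12 largest positive differences were in genes known from fat cells. Named genes were the 12 highest and 12 lowest differences among 548 genes with no overlap between groups, an unadjusted p under 0.05 and a mean of 1 CPM or more. Pck1, the rate-limiting enzyme of gluconeogenesis and of glycerol synthesis in fat (ENSMUSG00000027513, chromosome 2, 173153048 to 173159273), measured 5.75, 13.1 and 11 CPM in vehicle and 78.3, 221 and 119 CPM in weekly libraries. Its log2 difference was 3.81 ± 1.22 (SE, n = 3 per group; edgeR adjusted p = 0.858). Plin1, the coat protein of adipocyte lipid droplets (ENSMUSG00000030546, chromosome 7, 79721164 to 79732776), measured 1.48, 3.71 and 1.87 CPM in vehicle and 15.5, 40.7 and 21.7 CPM in weekly libraries. The lowest weekly library was thus well above the highest vehicle library for both genes, and weekly replicate 2 was the highest library for each. The log2 difference of Plin1 was 3.46 ± 1.17. Without any 1 library, it stayed between 2.99 and 3.95, and that of Pck1 between 3.32 and 4.10.

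Other genes among the 12 highest are known from fat as well, or have other roles. Adrb3, the beta-3 adrenergic receptor of adipocytes, measured 0.261, 0.586 and 0.727 CPM in vehicle and 4.48, 13.2 and 8.98 CPM in weekly libraries, a log2 difference of 4.09 ± 1.41. Cidea, which enlarges lipid droplets, measured 0, 0.293 and 0.208 CPM in vehicle and 4.83, 5.75 and 2.72 CPM in weekly libraries, with a log2 difference of 4.69 ± 1.99. Adrb3 and Cidea, with Nat8l, Arxes2, Ces1f and Ankef1, are 6 of the 12 genes that met the count limit through the weekly libraries alone, so their differences are given as values only. Prkar2b, a regulatory subunit of protein kinase A, had a log2 difference of 3.53 ± 1.38, Nat8l, which makes N-acetylaspartate, 4.26 ± 1.60, and Arxes2, an adipocyte-related gene of the X chromosome, 4.39 ± 1.86. The carboxylesterase Ces1f had a log2 difference of 3.59 ± 1.38, and reads of this family can be split between near-identical copies. Tmem45b and Ankef1 had log2 differences of 4.01 ± 1.47 and 3.20 ± 1.2. The remaining 2 of the 12 genes, Myh7 and Myl2, belong to slow fibers and are given with them.

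**Figure D2:**
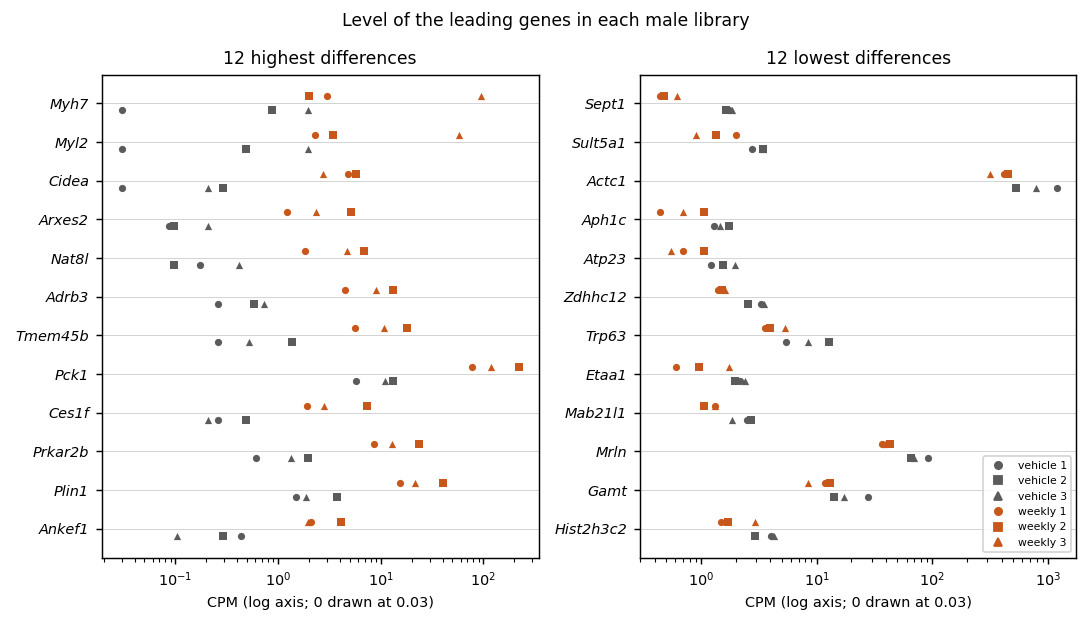
CPM on a log axis for the 12 highest (left) and 12 lowest (right) named genes, with vehicle libraries in grey, weekly libraries in orange, and the marker shape giving the replicate. The Myh7 value of weekly replicate 3 (94.5 CPM) stands far from the other weekly values (2.99 and 2.01 CPM), whereas the weekly values of Pck1 and Plin1 lie closer together.

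Markers of adipocytes were higher in mean as a list, and Plin1, Cidec, Cfd, Adipoq and Retn had the largest differences. Of 10 adipocyte markers, 9 had a positive difference and 5 were higher at an unadjusted p under 0.05 (2.91% of all genes). Of the 10, 6 lay above vehicle in every weekly library (7.62% of all genes). The median log2 difference of the 10 markers was 1.42, against 0.01 for all genes. Cfd, which encodes adipsin, measured 32.0, 42.3 and 29.5 CPM in vehicle and 127, 307 and 126 CPM in weekly libraries, a log2 difference of 2.43 ± 0.80. Cidec, which fuses lipid droplets, measured 3.74, 7.33 and 4.98 CPM in vehicle and 24.1, 70.9 and 36.6 CPM in weekly libraries, a log2 difference of 3.03 ± 0.98. For both, every weekly library lay above the highest vehicle library. The adipokine gene Adipoq measured 4.09, 12.1 and 6.65 CPM in vehicle and 21.5, 65.1 and 32.6 CPM in weekly libraries, with a log2 difference of 2.38 ± 0.89. Lep, the leptin gene, was the exception at -0.49 ± 0.89, with its highest value in vehicle replicate 2 (2.83 CPM).

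The summed level of the 10 adipocyte markers was 735, 982 and 1456 CPM in vehicle and 1213, 2148 and 2027 CPM in weekly libraries. These sums overlapped because Fabp4, Lpl and Car3, which muscle or vessel cells also express, carry most of them. No adipocyte marker was at 0 in any of the 6 libraries. The list's median stayed between 1.2, without weekly replicate 2, and 2.49, without vehicle replicate 2. The part that adipocytes left on the fibers have in the lipid results was not tested. Brown adipocyte markers lay at lower levels. Ucp1, which uncouples respiration in brown fat, had 129 counts in the 3 weekly libraries together and 1 count in the 3 vehicle libraries. Relative to the scaled library sizes this is 112 times as many, and the 95% interval from counting error runs from 19.7 to 4450. It measured 6.07, 3.45 and 1.67 CPM in the weekly libraries and was at 0 in vehicle replicates 1 and 2. The median of the 6 brown adipocyte markers tested was 0.50, and it was 0.02 without weekly replicate 3. Ucp1 and Cidea met the count limit through the weekly libraries alone, and the other 4 markers had a median of 0.08.

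Lipid droplet genes were higher in mean, and the largest differences were in Plin1 and Cidec, which are also adipocyte markers, and Cidea, which is also a brown adipocyte marker. Of 18 genes for droplet coats and lipases, 16 had a positive difference, 3 had an unadjusted p under 0.05 (Plin1, Cidec and Cidea) and 8 lay above vehicle without overlap, with a median of 0.42. Without Cidea, which met the count limit through the weekly libraries alone, the counts were 15 of 17, 2 and 7 (2.91% of all genes were higher at this p and 7.62% without overlap), and the median was 0.41. The droplet coat genes Plin4 and Plin5 had log2 differences of -0.01 ± 0.29 and 0.22 ± 0.51, with overlapping groups. Of 18 lipid synthesis genes, 14 were higher in mean, 1 had an unadjusted p under 0.05 and 6 did not overlap on the higher side, with a median of 0.25 that was 0.16 without weekly replicate 1. The desaturase gene Scd1 measured 49.0, 117 and 77.6 CPM in vehicle and 231, 469 and 365 CPM in weekly libraries, and its log2 difference was 2.13 ± 0.86. Fasn, the fatty acid synthase gene, measured 21.5, 30.8 and 29.2 CPM in vehicle and 101, 147 and 83.0 CPM in weekly libraries, with a log2 difference of 2.02 ± 1.0. Both genes had no overlap between groups. Me1 had the smallest p on the lower side, at -0.32 ± 0.25.

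Genes of fatty acid uptake and oxidation differed less. Of 27 genes, 21 had a positive difference and none had an unadjusted p under 0.05. Acsl1 was the 1 gene above vehicle without overlap (7.62% of all genes). The median of the 27 genes was 0.15, and it was 0.02 without weekly replicate 3. Acsl1, which activates fatty acids, measured 145, 155 and 141 CPM in vehicle and 156, 238 and 247 CPM in weekly libraries, a log2 difference of 0.54 ± 0.50. Slc27a1, a fatty acid transporter gene, had a log2 difference of 0.50 ± 0.50 and Ucp3, a mitochondrial carrier gene, -0.40 ± 0.27. Of 24 mitochondrial and oxidative regulators, 15 were higher in mean with a median of 0.10, and 4 did not overlap. Among these 4 were Pparg, the adipocyte transcription factor, at 0.82 ± 0.43 and the coactivator gene Ppargc1b at 0.99 ± 0.49. The 32 genes of pyruvate use and the TCA cycle had a median of 0.02, with 17 higher and 15 lower in mean. Among them, Pdk3 met the count limit through the weekly libraries alone. The other 31 had a median of 0.01, with 16 higher and 15 lower.

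Slow fiber genes had a higher median than the other lists in the full set of libraries, but not without weekly replicate 3, which held their largest values. All 11 slow fiber genes had a positive difference, 2 had an unadjusted p under 0.05 (2.91% of all genes), and 6 lay above vehicle in every weekly library (7.62%), with a median of 1.79. Myh7, the slow myosin heavy chain (ENSMUSG00000053093, chromosome 14, 54970688 to 54994634), measured 0, 0.879 and 1.97 CPM in vehicle and 2.99, 2.01 and 94.5 CPM in weekly libraries. Weekly replicate 3 stood far above the other 2 weekly libraries, which lay just above vehicle replicate 3. The log2 difference of Myh7 was 5.19 ± 2.31, and it was 1.47 without weekly replicate 3. Myl2, the slow regulatory light chain, measured 0, 0.488 and 1.97 CPM in vehicle and 2.29, 3.45 and 57.9 CPM in weekly libraries. Its log2 difference of 4.77 ± 2.03 was 1.87 without that library. The median of the 11 genes was 0.90 without weekly replicate 3, when that of adipocyte markers was 2.12, and 2.72 without vehicle replicate 3.

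The slow troponins also had their highest values in weekly replicate 3. Tnnc1, troponin C, measured 0.174, 1.47 and 1.66 CPM in vehicle and 2.2, 2.59 and 23.3 CPM in weekly libraries, with a log2 difference of 3.15 ± 1.53. The log2 differences of Tnni1 and Tnnt1, troponins I and T, were 3.42 ± 1.78 and 2.94 ± 1.45. The groups overlapped for Tnni1, as weekly replicate 2 (0.958 CPM) lay below vehicle replicate 2 (1.07 CPM). Vehicle replicate 1 was the lowest of the 6 libraries for each of the 3. Per kilobase of listed gene length the slow myosin stayed minor. Myh7 averaged 0.0576 RPKM in vehicle and 2.01 RPKM in weekly mice. Myh4, the fast myosin of type IIb fibers, averaged 4866 and 3851 RPKM.

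Fast fiber genes lay slightly lower. Of 15, 13 had a negative difference, with a median of -0.33. At an unadjusted p under 0.05, 5 were lower (2.73% of all genes), and 6 lay below vehicle in every weekly library (9.21%). The exceptions were the IIx and IIa myosins. Myh1 measured 678, 958 and 1147 CPM in vehicle and 956, 1523 and 2810 CPM in weekly libraries, a log2 difference of 0.93 ± 0.70. Myh2 measured 12.9, 125 and 194 CPM in vehicle and 78.9, 135 and 803 CPM in weekly libraries, and its log2 difference of 1.62 ± 1.40 became -0.04 without weekly replicate 3. The groups overlapped for both genes, with weekly replicate 3 the highest library. Pvalb, the calcium buffer parvalbumin, measured 21760, 18370 and 17550 CPM in vehicle and 13900, 15060 and 10750 CPM in weekly libraries, a log2 difference of -0.54 ± 0.19. The list's median was -0.21 without vehicle replicate 1 and -0.46 without vehicle replicate 3.

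**Figure D3:**
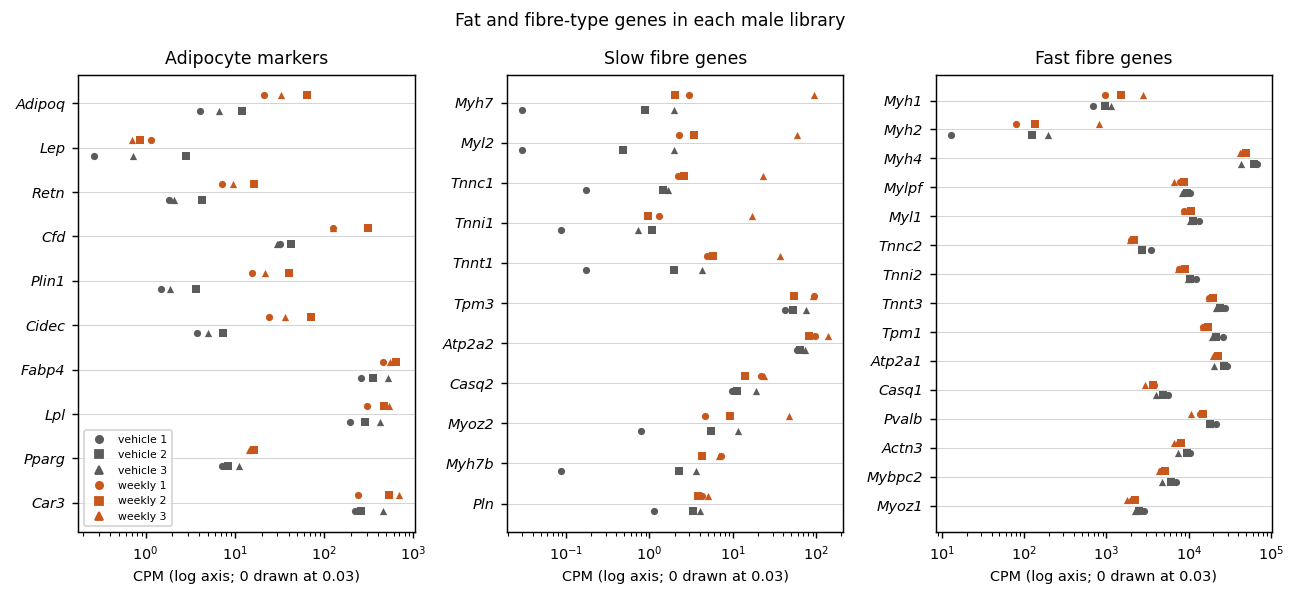
CPM on a log axis for 10 adipocyte markers, 11 slow fiber genes and 15 fast fiber genes in the 3 vehicle (grey) and 3 weekly (orange) libraries, with marker shapes for replicates. Weekly libraries lie to the right for Adipoq, Cfd, Plin1 and Cidec, weekly replicate 3 stands apart for Myh7 and Myl2, and most fast fiber genes lie slightly to the left.

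Calcium handling genes lay lower as a list, with the micropeptide Mrln and the channel subunit Cacng1 in front. Of 32 genes, 22 had a negative difference, 4 had an unadjusted p under 0.05 and all 4 were lower (2.73% of all genes), and 8 lay below (9.21%) and 1 above vehicle (7.62%) without overlap. The median was -0.17, and it was -0.07 without vehicle replicate 1 and -0.27 without vehicle replicate 3. Mrln (ENSMUSG00000019933, chromosome 10, 70204664 to 70219711) encodes myoregulin, which inhibits the SERCA calcium pump, and it measured 92.5, 65.1 and 69.1 CPM in vehicle and 37.0, 43.1 and 38.8 CPM in weekly libraries. All weekly values were close together and below vehicle, with a log2 difference of -0.93 ± 0.25 (edgeR adjusted p = 0.858). Cacng1, the gamma subunit of the muscle calcium channel, measured 344, 274 and 271 CPM in vehicle and 191, 213 and 171 CPM in weekly libraries, a log2 difference of -0.63 ± 0.18. Casq1, the fast calsequestrin that stores calcium, measured 5588, 4890 and 4047 CPM in vehicle and 3792, 3642 and 2981 CPM in weekly libraries, a log2 difference of -0.48 ± 0.17. Pvalb was the fourth of these genes. On the higher side, Atp2a2, the slow SERCA pump, measured 58.7, 64.3 and 73.3 CPM in vehicle and 97.5, 81.4 and 139 CPM in weekly libraries, with a log2 difference of 0.70 ± 0.43. Casq2, the slow calsequestrin, had a log2 difference of 0.57 ± 0.37 and Cacna1h, a T-type calcium channel, 0.23 ± 0.41, both with overlapping groups. Casq1, Pvalb and Atp2a1 are also fast fiber genes, and Atp2a2, Casq2 and Pln also slow fiber genes.

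The IGF1 and PI3K pathway, which drives muscle growth, was balanced as a list. Of 33 genes, 18 had a positive and 15 a negative difference, and the median was 0.01. An unadjusted p under 0.05 was reached by 2 genes that were higher, Irs1 and Itga3, and 1 that was lower, Pik3cd. Over all genes, 2.91% were higher and 2.73% lower at this p. Among ligands, Igf1 measured 16, 13.2 and 12.5 CPM in vehicle and 21.2, 21.4 and 17.8 CPM in weekly libraries, a log2 difference of 0.53 ± 0.30 with no overlap. Among adaptors and receptors, Irs1 was higher by 0.48 ± 0.20 on the log2 scale and the integrin gene Itga3 by 0.70 ± 0.27. Itga3 measured 13, 9.96 and 10.7 CPM in vehicle and 26.4, 16.8 and 11.8 CPM in weekly libraries, and groups overlapped for both genes. Among the kinases, Pik3c2a measured 6.01, 9.28 and 8.20 CPM in vehicle and 15.9, 11.6 and 11.1 CPM in weekly libraries, with a log2 difference of 0.72 ± 0.37, while Pik3cd had -0.44 ± 0.16. The catalytic subunit gene Pik3ca and the kinase gene Akt1 had log2 differences of -0.05 ± 0.17 and -0.00 ± 0.12. Of the binding proteins, Igfbp3 lay below vehicle without overlap at -0.61 ± 0.31.

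Known targets of the glucocorticoid receptor showed little difference at this time point. Of 20 targets, 9 had a positive and 11 a negative difference, and the median was -0.03, with -0.24 without weekly replicate 1 and 0.16 without weekly replicate 3. Angptl4, an inhibitor of lipoprotein lipase, was the exception, with 11.2, 15.1 and 13.4 CPM in vehicle and 29.2, 43.8 and 34.2 CPM in weekly libraries. All weekly values of Angptl4 were above vehicle, with a log2 difference of 1.43 ± 0.67. The other 19 targets had an unadjusted p of 0.05 or more. Fkbp5, a chaperone of the receptor, had a log2 difference of -0.40 ± 0.42, Tsc22d3, which encodes the protein GILZ, -0.32 ± 0.21, Klf15 -0.30 ± 0.25, and Per1, a clock gene, 0.24 ± 0.36. Metallothionein genes were uneven, as Mt2 measured 25.3, 50.1 and 95.6 CPM in vehicle and 128, 60.5 and 35.7 CPM in weekly libraries. The median over the targets was 0.21 in males on daily prednisone, which share the vehicle libraries.

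The ubiquitin ligases of muscle atrophy were lower in mean. Trim63, which encodes MuRF-1 (ENSMUSG00000028834, chromosome 4, 134315120 to 134329629), measured 614, 577 and 698 CPM in vehicle and 362, 451 and 272 CPM in weekly libraries. Fbxo32, which encodes atrogin-1 (ENSMUSG00000022358, chromosome 15, 58175879 to 58214892), measured 915, 868 and 633 CPM in vehicle and 360, 583 and 519 CPM in weekly libraries. Every weekly value of both genes was below every vehicle value, yet the log2 differences of -0.80 ± 0.52 and -0.72 ± 0.43 both had an edgeR adjusted p of 0.86. In males on daily prednisone, against the same vehicle libraries, the log2 differences were 0.31 for Trim63 and 0.04 for Fbxo32. Over the 17 genes of atrophy and ubiquitin ligases, 12 were lower in mean, 4 lay below (9.21% of all genes) and 2 above vehicle (7.62%) without overlap, and the median was -0.08, with -0.04 without weekly replicate 1 and -0.13 without weekly replicate 2. The 2 above vehicle were the F-box genes Fbxo21 (0.62 ± 0.45) and Fbxo30 (0.21 ± 0.20).

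The genes the study names gave a mixed picture. Of 21, 14 had a positive difference, and 4 were higher and 1 lower at an unadjusted p under 0.05 (2.91% and 2.73% of all genes). Without overlap, 8 lay above and 4 below vehicle (7.62% and 9.21% of all genes). The median log2 difference of the 21 was 0.51. Without Cidea, which met the count limit through the weekly libraries alone, 13 of 20 had a positive difference. Of these 20, 3 were higher and 1 lower at an unadjusted p under 0.05. Without overlap, 7 of them lay above and 4 below vehicle, and their median was 0.50. The study names these genes beside results of these samples, so they are not independent evidence of a direction. The phosphatidylcholine synthesis gene Chpt1 measured 42.4, 51.1 and 40.6 CPM in vehicle and 51.2, 72.0 and 67.8 CPM in weekly libraries, a log2 difference of 0.51 ± 0.47.

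The lowest differences came from genes of varied function. Sept1, a septin of the cytoskeleton (ENSMUSG00000000486, chromosome 7, 127214447 to 127218498), measured 1.74, 1.66 and 1.87 CPM in vehicle and 0.440, 0.479 and 0.627 CPM in weekly libraries. The log2 difference was -1.73 ± 0.39, but Sept1 met the count limit through the vehicle libraries alone, so it is given as a value only. Actc1, cardiac alpha actin (ENSMUSG00000068614, chromosome 2, 114047282 to 114053548), measured 1190, 527 and 798 CPM in vehicle and 419, 456 and 317 CPM in weekly libraries, a log2 difference of -1.08 ± 0.43. Gamt, an enzyme of creatine synthesis, measured 28.0, 14.1 and 17.3 CPM in vehicle and 11.9, 13 and 8.36 CPM in weekly libraries, a log2 difference of -0.84 ± 0.27. For Gamt the groups were separated only narrowly, by vehicle replicate 2 and weekly replicate 2. The sulfotransferase gene Sult5a1 (-1.18 ± 0.41), the secretase subunit Aph1c (-1.05 ± 0.44), the mitochondrial protease Atp23 (-1.05 ± 0.39), the transcription factor Trp63 (-1.03 ± 0.41), Mab21l1 (-0.94 ± 0.35) and Etaa1, a replication stress factor (-0.94 ± 0.34), had similar log2 differences. The histone gene Hist2h3c2 (-0.84 ± 0.31) shares sequence with other histone H3 genes, so its reads are uncertain.

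Other genes with small p values were also chosen after the values were seen. Actg2, a smooth muscle actin, measured 0.174, 0.195 and 0.519 CPM in vehicle and 2.99, 2.49 and 1.81 CPM in weekly libraries, a log2 difference of 3.02 ± 0.63. Rabep2, which acts in endosome transport, measured 79.9, 62.7 and 69.6 CPM in vehicle and 42.5, 39.1 and 49.2 CPM in weekly libraries, a log2 difference of -0.70 ± 0.15. Neither overlapped between groups. The ATP receptor gene P2rx1 had a log2 difference of 1.94 ± 0.50, Scube3 1.55 ± 0.36, Tmtc3 0.66 ± 0.17, Rai1 0.51 ± 0.13 and Cxxc1 0.40 ± 0.10. Of these, Actg2, P2rx1 and Scube3 met the count limit through the weekly libraries alone. Lsp1 (-0.65 ± 0.16), Tmem41a (-0.77 ± 0.18) and Ccdc12 (-0.45 ± 0.12) were lower without overlap.

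Genes of the ribosome, the proteasome and the respiratory chain lay lower by small amounts. Of 55 cytosolic ribosomal protein genes, 54 had a negative difference and 32 lay below vehicle in every weekly library (9.21% of all genes), with a median of -0.19 that became -0.10 without weekly replicate 3. Only Rps24 among them had an unadjusted p under 0.05, at 257, 248 and 265 CPM in vehicle and 211, 222 and 193 CPM in weekly libraries, a log2 difference of -0.30 ± 0.13. All 31 proteasome subunit genes had a negative difference, with a median of -0.22. Of these, 14 lay below vehicle without overlap (9.21% of all genes) and 3 had an unadjusted p under 0.05 (2.73%). Psmd4, a ubiquitin receptor of the proteasome, measured 157, 137 and 146 CPM in vehicle and 106, 127 and 113 CPM in weekly libraries, a log2 difference of -0.34 ± 0.15. Of 36 nuclear genes of complex I, 33 had a negative difference and 12 lay below vehicle without overlap, with a median of -0.17 and none at an unadjusted p under 0.05. Ndufa2 had a log2 difference of -0.34 ± 0.17. The 38 nuclear genes of complexes III to V had a median of -0.10, with 29 lower in mean and 9 below vehicle without overlap, and -0.02 without weekly replicate 1. Of 29 glycolysis and glycogen genes, 24 were lower in mean and 4 lay below vehicle without overlap, with a median of -0.19 that became -0.10 without vehicle replicate 1. The 13 mitochondrially encoded mRNAs had a median of -0.01, and 0 of them were separated between groups.

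Listed gene length moved with these small differences. Genes up to 1000 bases long had a median log2 difference of -0.14 over 419 genes, and 21.2% of them lay below vehicle without overlap. Genes above 8000 bases had a median of 0.04 over 5233 genes, and 6.13% lay below vehicle. With the trend of each library on length removed, the median of all genes shifted to -0.05, and the medians of the ribosomal, proteasome and complex I lists were -0.22, -0.26 and -0.19. In males on daily prednisone, set against the same vehicle libraries, the medians of these 3 lists were -0.53, -0.41 and -0.76. Daily prednisone had 911 genes called of 12636 (7.21%; edgeR adjusted p under 0.05).

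Markers of vessel wall and nerve sheath cells were higher in mean. Of 8 smooth muscle and pericyte markers, 7 had a positive difference, with a median of 0.58. Of the 8, 3 lay above vehicle without overlap (7.62% of all genes) and 1 was higher at an unadjusted p under 0.05 (2.91%). Cnn1, calponin of smooth muscle, measured 3.05, 3.91 and 5.50 CPM in vehicle and 10.1, 9.01 and 10.5 CPM in weekly libraries, a log2 difference of 1.26 ± 0.43. Acta2, Tagln and Cnn1 were separated between groups. The contractile marker Myh11 overlapped, at 74.0, 107 and 153 CPM in vehicle and 213, 133 and 199 CPM in weekly libraries. Rgs5, Cspg4 and Abcc9 were also higher in mean with overlap, and Pdgfrb was the only marker lower in mean, at -0.16 ± 0.35. The summed level of the 8 markers was 946, 1219 and 1679 CPM in vehicle and 1700, 1373 and 1558 CPM in weekly libraries. Of 6 Schwann cell markers, all had a positive difference, 2 lay above vehicle without overlap and 1 had an unadjusted p under 0.05, with a median of 0.76 that was 0.41 without weekly replicate 1. Their summed level was 112, 152 and 219 CPM in vehicle and 369, 216 and 212 CPM in weekly libraries. The part of these cells in the other results, Actg2 among them, was not tested.

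Connective tissue markers overlapped widely between the groups. The fibroblast markers summed to 1428, 1664 and 3475 CPM in vehicle and 3241, 1617 and 2150 CPM in weekly libraries, and the 7 markers had a median of 0.12, with -0.17 without weekly replicate 1. The 6 tendon markers had a median of 0.25, with -0.11 without weekly replicate 1. Vehicle replicate 3 and weekly replicate 1 were the highest libraries for both lists. Of 28 collagen and matrix genes, 25 were higher in mean and 2 (7.14%) without overlap, near the 7.62% of all genes. The median of the 28 was 0.17, and it became -0.05 without weekly replicate 1. Postn, the matrix protein periostin, measured 8.71, 14.6 and 27.0 CPM in vehicle and 33.3, 29.8 and 41.4 CPM in weekly libraries, a log2 difference of 1.06 ± 0.53. The 8 endothelial markers had a median of 0.12, the 6 satellite cell markers 0.14 and the 5 red cell markers 0.23, each with 0 genes separated between groups. Markers of T and B cells summed to 1.13, 1.07 and 0.831 CPM in vehicle and 0.879, 0.383 and 1.67 CPM in weekly libraries. No marker of these cells or of neutrophils met the count limit.

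The sex difference of the weekly response was tested as an interaction with 3 female vehicle and 3 female weekly libraries. No gene passed, with 0 of 12636 called (0%; edgeR, smallest adjusted p = 1.0) and 322 at an unadjusted p under 0.05 (2.55%). DESeq2 and limma-voom also called 0. In females alone 0 genes were called (0%) and 979 had an unadjusted p under 0.05 (7.75%), while 607 lay above (4.8%) and 397 below vehicle (3.14%) without overlap. Adipocyte markers had a median of 3.16 in females against 1.42 in males, and the summed level of these markers in females was 1772, 1694 and 1688 CPM in vehicle and 7933, 1965 and 9482 CPM in weekly libraries. Lipid droplet genes had medians of 1.23 in females and 0.42 in males. Their mean log2 CPM in females was 4.67, 4.59 and 4.45 in vehicle and 6.19, 4.32 and 6.89 in weekly libraries. Slow fiber genes had medians of 2.09 in females and 1.79 in males. Their summed level in females was 208, 123 and 216 CPM in vehicle and 2467, 252 and 215 CPM in weekly libraries. Female weekly replicate 1 thus held the largest value by far.

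Antigen presentation genes and macrophage markers had medians near 0 in males and above 0 in females, though no single gene passed the test of the difference. Of 20 antigen presentation genes, 12 were lower in mean in males, with a median of -0.07 against 0.62 in females, and 5 had an unadjusted p under 0.05 for the sex difference (2.55% of all genes). Cd74, the invariant chain of MHC class II, measured 41.7, 42.2 and 43.7 CPM in male vehicle and 31.6, 33.3 and 30.2 CPM in male weekly libraries. Its log2 difference was -0.43 ± 0.18 in males and 0.55 in females (edgeR adjusted p = 1 for the sex difference). Of 9 macrophage markers, 5 were lower in mean in males, with a median of -0.07 (between -0.16 and 0.02 when 1 male library was left out) against 0.65 in females, and 4 had an unadjusted p under 0.05 for the sex difference. C1qb, a complement subunit made by macrophages, had log2 differences of 0.24 ± 0.28 in males and 1.46 in females. The 9 markers summed to between 60.9 and 72.9 CPM in the 6 male libraries and to 76.1, 39.7 and 71.8 CPM in female vehicle and 102, 92.2 and 116 CPM in female weekly libraries. The 29 interferon-stimulated genes had medians of 0.04 in males and 0.26 in females. Zdhhc12, a palmitoyltransferase gene, measured 3.31, 2.54 and 3.53 CPM in male vehicle and 1.41, 1.53 and 1.60 CPM in male weekly libraries, with log2 differences of -1.04 ± 0.28 in males and 0.53 in females (edgeR adjusted p = 1 for the sex difference).

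Genes for steroid receptors and their cofactors had a median of 0.17 over 18 genes in males, with 13 higher in mean. The estrogen receptor gene Esr1 measured 17.4, 18.9 and 16.6 CPM in vehicle and 12, 15.4 and 14.8 CPM in weekly libraries, all below vehicle. The log2 difference of Esr1 was -0.32 ± 0.20 in males and 0.45 in females (edgeR adjusted p = 1 for the sex difference). Nr4a3, an immediate early nuclear receptor, had 15.4, 20.3 and 30.1 CPM in vehicle and 73.0, 60.8 and 25.9 CPM in weekly libraries, a log2 difference of 1.28 ± 0.56 with overlap.

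The remaining lists had medians between -0.06 and 0.25. The 21 clock genes had a median of 0.00, 11 higher and 10 lower in mean, and 0 without overlap. The 21 myogenic and MEF2 factors had a median of 0.00, the 25 genes of the dystrophin complex and membrane repair 0.02, the 19 heat shock protein genes 0.08 (0.26 without vehicle replicate 1 and -0.04 without vehicle replicate 3) and the 26 genes of sarcomere structure -0.06. Sntb1, a syntrophin of the dystrophin complex, measured 0.610, 0.488 and 1.66 CPM in vehicle and 2.90, 2.97 and 2.79 CPM in weekly libraries, a log2 difference of 1.66 ± 0.47. The 19 genes of the myostatin and activin axis had a median of 0.11, with the ligand gene Gdf11 at -0.42 ± 0.18 and the receptor gene Tgfbr1 at 0.29 ± 0.13, both without overlap. Immediate early and stress factors were uneven, with 20 of 23 higher in mean, a median of 0.15, and a range of -0.26 to 0.47 when 1 library was left out. Atf4 among them lay below vehicle in all 3 weekly libraries, at -0.34 ± 0.14. The 19 genes of the neuromuscular junction and denervation had a median of 0.25, which was 0.06 without weekly replicate 1, with Hdac4, a repressor of muscle genes, at 48.4, 67.8 and 51.7 CPM in vehicle and 27.6, 34.1 and 45.1 CPM in weekly libraries. The log2 difference of Hdac4 was -0.65 ± 0.21, and that of the embryonic myosin gene Myh3 was 1.96 ± 0.86, although Myh3 met the count limit through the weekly libraries alone.

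**Figure D4:**
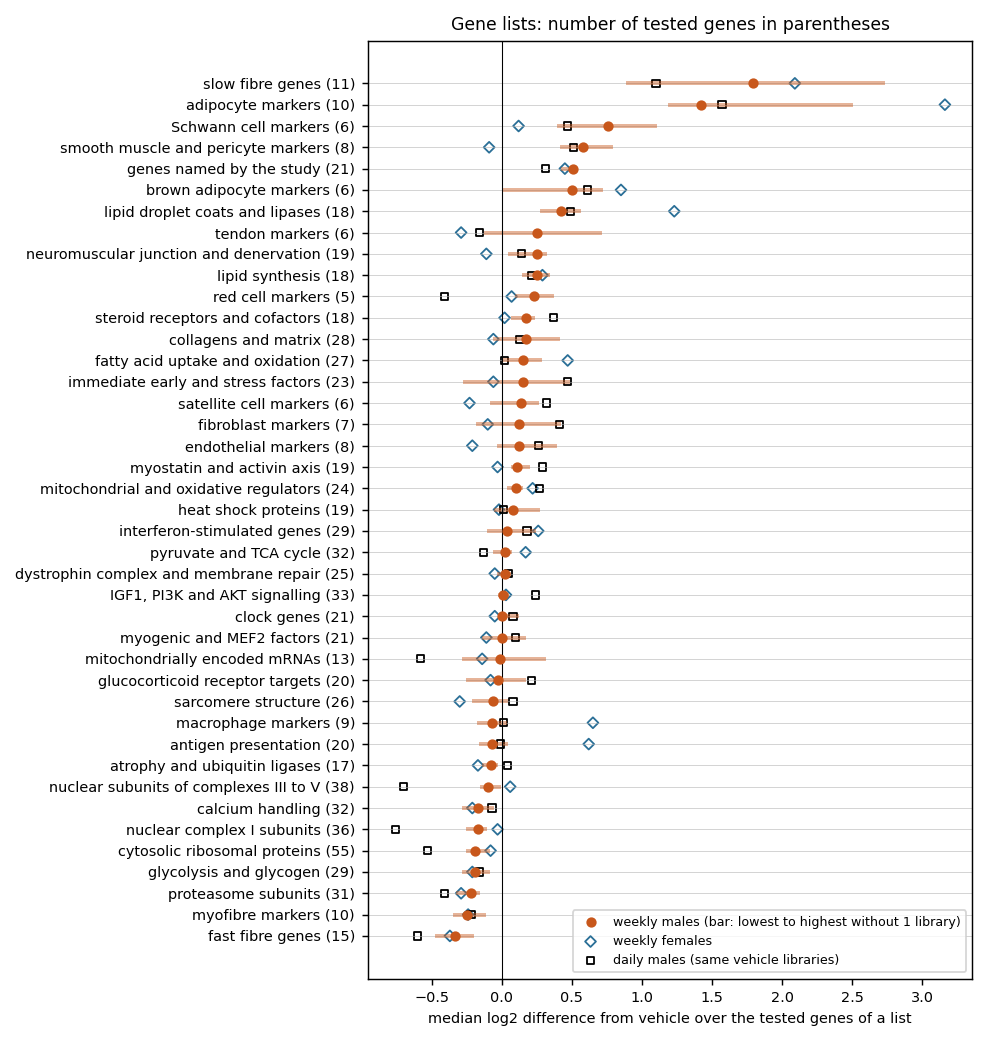
Median log2 difference from vehicle (x axis) over the tested genes of each list, whose number is in parentheses, for weekly males (orange; the bar spans the lowest to highest median when 1 male library is left out), weekly females (blue diamonds) and daily males (black squares, same vehicle libraries as weekly males). Slow fiber genes (1.79) and adipocyte markers (1.42) have the highest medians in weekly males, and the bar of slow fiber genes reaches from 0.90 to 2.72.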

How the data were processed

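RNA-Seq libraries of isolated myofibers were grouped by the sex, treatment and replicate given in the labels. The deposited table gives unnormalized counts of reads for each gene as whole numbers. Per the submitters' processing notes, the authors used TopHat2 2.1.0, Bowtie2 2.2.6 and HTSeq, and the study's methods give mm10. The strand setting and annotation release are not given in the sources used here, so overlapping genes are uncertain. Of 43430 identifiers, 42462 matched a symbol in GENCODE release 21 for mouse. CPM and log2 CPM (prior count 2) were computed from the counts.

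Genes with 10 or more counts in at least 3 of the 6 male vehicle and weekly libraries were fitted in R 4.3.3 with edgeR 4.0.16 (TMM factors, robust quasi-likelihood, 6 group means over all 18 libraries), with Benjamini-Hochberg adjustment across the 12636 genes. The fit over all groups shares 1 estimate of the spread. Standard errors come from the log2 fold change and its F statistic, and all tests were two-sided. The interval for low counts is an exact conditional binomial 95% interval and covers counting error only. RPKM values are CPM per kilobase of the gene length listed with the counts. This length is not that of a single transcript for every gene, since it can exceed the genomic span. Lcn2, for example, is listed at 5553 bases but spans chromosome 2 from 32384633 to 32388252. The steps were tested on simulated data.

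The 43 gene lists and the comparison were chosen with earlier results of these data known. Named genes were targets of the glucocorticoid receptor, genes of interest in the study, the 12 highest and 12 lowest differences among named genes with a mean of 1 CPM or more, no overlap and an unadjusted p under 0.05, and up to 2 genes each way with the smallest p in each list. Unnamed gene models were passed over. Some genes that meet this rule are not reported here. Other genes are stated as chosen later. Alternatives were DESeq2 1.42.0, its size factors, limma-voom (limma 3.58.1), other filters, the 6 libraries alone, the replicate number as a block and leaving out each library. Removal of each library's length trend (spline, 5 degrees of freedom) and the block in the 6 libraries alone were chosen after seeing the data.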

Additional observations from a re-analysis of the deposited data

How the results depend on the processing

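Over the alternatives, 2530 recomputed differences of named genes kept their direction and side of the threshold, 25 came to pass it and 3 reversed. Except for Lcn2 with DESeq2, the 25 all came from the replicate block in the 6 libraries alone. Reversals were counted only where the reported difference lay farther than 1 SE from 0. Of the recomputed medians of gene lists, 506 moved by no more than 1 SD between replicates and 27 by more. When 1 library was left out, 18 of 41 list medians changed sign, 18 others moved by over 1.5 times and 5 did neither. The count of called genes, 0 by edgeR, was 1 with DESeq2 (Lcn2) and 0 under limma-voom, DESeq2 size factors, each filter, the 6 libraries alone and without any 1 library. Replicate numbers were not treated as pairs in the main fit. Deviations of same-numbered mice from their group means correlated at -0.14, 0.07 and 0.10. Such values cannot show whether the mice were housed or processed in pairs. Vehicle replicate 1 was closest to weekly replicate 2 (0.31) and vehicle replicate 3 to weekly replicate 1 (0.22). With the replicate block, 0 genes were called over all 18 libraries (575 at an unadjusted p under 0.05), and 66 (63 higher, 3 lower) in the 6 libraries alone, which leaves 2 residual degrees of freedom. The interaction also gave 0 with the block. The expression and fold filter gave 807 genes with a mean log2 CPM above 1, 51 with an absolute log2 difference above 1, and between 317 (without male weekly replicate 1) and 834 (without male vehicle replicate 3) when 1 library was left out, including 667 without male weekly replicate 2. Genes at an unadjusted p under 0.05 numbered 1270 in the 6 libraries alone, 374 without male vehicle replicate 1 and 409 without male weekly replicate 1, against 713. For the sex difference they numbered 544 with no filter and 805 without female weekly replicate 2, against 322. Without male weekly replicate 3, Myh2 went from 1.62 to -0.04 (range -0.04 to 2.3 over the left-out libraries), Kdr from 0.38 to -0.01 (-0.01 to 0.67) and Nlrc5 from 0.39 to -0.0012 (up to 0.59). Apart from the filter, where the construction shows it, the cause was not tested. Depth limits genes at low counts, such as Ucp1 with 1 count in the vehicle libraries together.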
